A study of Mus musculus with 6 samples.

Results

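The late neutrophil granule genes and the S100a pair were followed through bone marrow stem and progenitor cells of mice with and without leukemia. The members were S100a8, S100a9, Ngp, Camp, Ltf and Lcn2, chosen by symbol, which are 6 of the 32285 genes in the files. Single-cell RNA sequencing was done on 3 libraries from PBS-injected controls and 3 libraries from mice that had received C1498, the mouse line of acute myeloid leukemia (AML) used here. All recipients were female C57BL/6J (CD45.1) mice of 8 to 12 weeks that had received no conditioning, and all were sacrificed at day 21. Each AML recipient was given 1000000 C1498 cells, which carry CD45.2, so that sorting CD45.1+ Lin- cKit+ Sca1+ (LSK) cells collected host cells in both groups. The leukemia comes from 1 cultured line, and the labels number the samples without saying whether a library is 1 mouse or a pool, so that p-values measure the spread between libraries. The authors' cell table holds 16822 of the 48510 barcodes and no cell of AML replicate 2. With it absent, 2 AML libraries were compared with 3 PBS libraries.

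S100A8 and S100A9 pair to form calprotectin, the most abundant soluble protein of the neutrophil cytosol and a ligand of Toll-like receptor 4. Ngp (neutrophilic granule protein), Camp (the cathelicidin precursor), Ltf (lactoferrin) and Lcn2 (lipocalin 2, which binds iron-loaded siderophores) are proteins of the secondary and tertiary granules, made at the myelocyte and metamyelocyte stages under the transcription factor C/EBP-epsilon. The primary granule proteases such as elastase (Elane), proteinase 3 (Prtn3) and cathepsin G (Ctsg) are made earlier, in promyelocytes and their progenitors. Sorting for Lin- cKit+ Sca1+ cells is meant to leave out every cell of the late stages.

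On GRCm38, the build named in the submitters' processing notes, the annotation places S100a8 at chr3:90668978-90670035 on the plus strand and S100a9 at chr3:90692632-90695721 on the minus strand, with 22596 bases between them. Camp (chr9:109847379-109849617, minus), Ngp (chr9:110419747-110423012, plus) and Ltf (chr9:111019271-111042767, plus) lie on 1 chromosome, with 570129 bases between Camp and Ngp and 596258 between Ngp and Ltf. Lcn2 lies at chr2:32384633-32388252 on the minus strand. The 250 bases before the RefSeq start site were searched on both strands for TTGCNNAA, a spacing of the C/EBP recognition motif. It was present in 4 of the 6 members (S100a9, Ngp, Ltf and Lcn2) and in 9.56% of the 32851 promoters of the same length. The letters TATAAA were present in S100a8 alone among the members and in 12.4% of all promoters, and GAGGAAGT, a PU.1-type motif, in S100a8 alone and in 2.44%. No motif overlapped another in the members. The windows of Ngp and Ltf are shown because a match of TTGCNNAA falls in the 100 bases before their first annotated start. Each is on the plus strand, 5′ to 3′, from chr9:110419647-110419746 and chr9:111019171-111019270 (RefSeq, GRCm38.p6), with the match in capitals.
Ngp: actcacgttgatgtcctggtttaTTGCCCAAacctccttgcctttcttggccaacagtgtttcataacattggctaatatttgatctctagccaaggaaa
Ltf: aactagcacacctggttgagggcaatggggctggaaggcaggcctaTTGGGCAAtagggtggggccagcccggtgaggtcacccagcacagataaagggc
These matches describe the letters of the window and no binding was measured.

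Libraries differed in depth and in barcodes. Cells in the table carried 1945659 to 32123508 UMIs (unique molecular identifiers, each standing for 1 captured transcript) per library, with medians of 4015 to 9586 UMIs per cell in PBS and 2393 and 5910 in AML replicates 1 and 3. Of all barcodes, 6937 occurred in 2 or more libraries, including 97.4% of those of PBS replicate 2 and 40.5% of those of AML replicate 2. Among cells in the table, 36 barcodes were kept in 2 libraries, and these held 0 UMIs of the members. Intervals given here are exact at 95% and cover counting error only.

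The members were scarce in LSK cells, and their UMIs were piled into very few of them. The 16822 cells held 782 UMIs of the 6 genes together among 94812773 in all, or 8.25 CPM (UMIs per 1000000 UMIs of the same cells). Of the cells, 323 (1.92%) carried any member UMI, and 280 of these carried exactly 1. A carrier was defined as a cell with at least 5 member UMIs from at least 3 members, and 3 cells of the table met this. They held 406 of the 782 UMIs (51.9%). The plot of cells by number of UMIs shows 2 of them standing apart from all other cells.

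**Figure D1:**
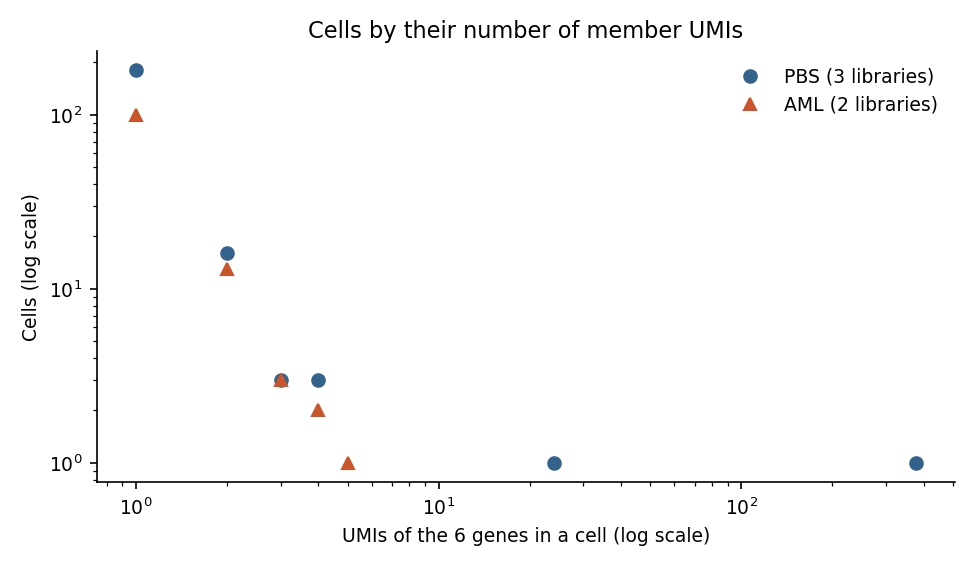
Number of cells in the table (vertical axis, log scale) by the UMIs of the 6 genes in the cell (horizontal axis, log scale), for the 3 PBS libraries (circles) and the 2 AML libraries (triangles); cells with 0 are not drawn. Nearly all cells sit at 1 to 5 UMIs, and 1 PBS cell at 24 and 1 PBS cell at 377 lie far to the right.

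The cell with most member UMIs came from PBS replicate 1 and held 377, which is 48.2% of those in all cells of the table. It carried 93 UMIs of S100a8, 164 of S100a9, 67 of Ngp, 45 of Camp, 2 of Ltf and 6 of Lcn2. The members were 9.35% of its 4031 UMIs. Its depth was ordinary for its library (median 4015), but it showed 1100 genes where the median was 1783. The authors' table places it in cluster 0, in the MPP-3 class and in G1.

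This cell also carried the other late genes. Of 18 other late granule and maturation genes, 12 were detected with 119 UMIs, among them Retnlg (a resistin-like protein of mature neutrophils) with 59, Pglyrp1 (a peptidoglycan recognition protein) with 14 and Mmp8 (neutrophil collagenase) with 10. Retnlg had 60 UMIs in all cells of PBS replicate 1, so that 59 of them lay here. Of 12 mature neutrophil markers 7 were detected, and 5 of the 12 also stand in the late granule list. Ly6g was at 0. Of 6 primary granule genes it showed Prtn3 alone, with 2 UMIs. Of 9 genes of the LSK gate and the stem cell state (Kit, Ly6a, Cd34, Flt3, Slamf1, Cd48, Procr, Mecom and Hlf) it showed 0, so the sorted surface markers were not seen in its RNA. Hemoglobin genes made up 1483 UMIs, or 36.8% of the cell, after a protocol that lysed red cells. Ribosomal protein genes made up 3.67% of its UMIs, against a median of 27.2% in its library, and 14 of 6838 cells there were lower. Its barcode occurred in no other library.

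The second carrier, in PBS replicate 3, was a different kind of cell. It held 24 member UMIs among 11764, with 19 of S100a8, 3 of Ngp, 1 of S100a9 and 1 of Lcn2, and 0 of Camp and Ltf. All 6 primary granule genes were present with 576 UMIs, led by Prtn3 with 255 and Elane with 245. Kit and Cd48 were present with 1 UMI each, Nkg7 with 24, and hemoglobin was at 0. The authors' table places it in cluster 4, in the MPP-3 class and in S phase. Its barcode occurred in 1 other library, with 2 member UMIs there.

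The third carrier, in AML replicate 3, just met the definition with 5 member UMIs among 9863: 2 of S100a8 and 1 each of S100a9, Camp and Lcn2. It too lay in cluster 4, in the MPP-2 class, with 113 UMIs over 6 of 6 primary granule genes and with 5 of 9 gate and stem cell genes. Its barcode occurred in 1 other library, with 0 member UMIs there. The share of carriers was 0.0146%, 0% and 0.0227% in the PBS libraries and 0% and 0.0253% in the AML libraries. The groups overlapped, and the exact two-sided permutation test over libraries gave p = 1, where the smallest p that 3 against 2 libraries allow is 0.1.

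Outside the 3 carriers, the 376 UMIs were spread thinly. Ngp had 51 UMIs in 51 different cells, and Camp 87 UMIs in 85 cells. If each library's UMIs had been dealt to its cells in proportion to their depth, 50.9 and 86.7 cells would have been reached. No cell held 2 or more of Ngp, where an even spread gives 0.105, and 2 cells did of Camp, where it gives 0.316. S100a8 had 79 UMIs in 70 cells, where an even spread reaches 78.8, and 8 cells held 2 or more, where it gives 0.248. S100a9 had 83 UMIs in 69 cells against 82.7, with 11 cells of 2 or more against 0.283. S100a8 and S100a9 were seen together in 6 cells, where 0.521 would be reached by an even spread. S100a9 and Ngp were seen together in 4 cells against 0.325, and Camp with S100a8 or S100a9 in 0 cells against 0.52 and 0.572. S100a8 and S100a9 thus fell on fewer cells than an even spread gives, and Camp and Ngp lay nearer to it. All these even-spread values are arithmetic and no test.

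The thin remainder was also seen outside the cells of the table. Barcodes there had median depths of 3194, 8396.5 and 3857.5 UMIs in PBS. In AML replicates 1, 2 and 3 the medians were 944, 320 and 3748.5. Many were thus as deep as cells of the table, so they are no clean sample of RNA from outside cells. The 6 members made 3.97 CPM in the cells of the table without carriers, and 3.40 CPM (interval 2.86 to 4.01) in the 31688 barcodes outside the table. The 13437 barcodes under 500 UMIs, with a median of 271, had 3.06 CPM (1.58 to 5.34), and 12716 of them are of AML replicate 2. In AML replicate 2 the barcodes that occur in another library had 5.04 CPM (2.68 to 8.61) and those that do not had 0.887 (0.242 to 2.27), so the level was not the same in all barcodes. A barcode of AML replicate 1 outside the table held 5 member UMIs of 4 members among 1221 UMIs. The make-up was also near: in clusters 0 to 3 without carriers, S100a8 was 23.0% of the member UMIs, S100a9 27.9%, Ngp 16.03%, Camp 27.5% and Lcn2 3.14%. Outside the table the same genes were 27.7%, 25.5%, 11.3%, 27.0% and 6.38%. Each of these 5 shares lies within the interval of its counterpart outside the table. In the cell with 377, S100a9 was 43.5% (38.4 to 48.7) and Camp 11.9% (8.84 to 15.6), so its mixture was another.

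By depth the remainder and Lcn2 went opposite ways when all libraries and clusters were pooled. Without Lcn2 and without carriers, the 5 members fell from 4.45 CPM in cells of up to 3000 UMIs to 4.21 in cells of 3000 to 6000, 2.80 in cells of 6000 to 12000 and 1.70 (1.11 to 2.50) above. Their UMIs per 1000 cells went from 11.1 to 17.9, 22.6 and 26.9, a smaller rise than that of median depth from 2520 to 14713. Lcn2 over the same steps was 0, 0.214, 0.785 and 1.97 CPM. Most Lcn2 lay in cluster 4, where median depth was 8458 UMIs against 4476.5 elsewhere. Median depth also ran from 2393 in AML replicate 1 to 9586 in PBS replicate 2. The part of clusters and libraries in these steps was not tested.

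The clusters did not share the members evenly. Before carriers are left out, cluster 0 held 64.5% of the member UMIs with 37.8% of the cells, and 377 of its 504 lay in the 1 cell. Without carriers, the 5 members other than Lcn2 stood at 3.36 CPM (2.98 to 3.78) in clusters 0 to 3 and 3.13 (1.99 to 4.70) in cluster 4. They stood at 1.25 (0.34 to 3.19) in clusters 6 to 8, where 4 of 392 cells (1.02%) had a UMI of them at a median depth of 6351.5. For comparison, 1.60% of the cells of clusters 0 to 3 had one, at a median depth of 4479. Clusters 6, 7 and 8 are led among the fixed lists by B and plasma cell genes (120329 CPM in cluster 6), erythroid genes (12976 in cluster 7) and T and NK genes (1615 in cluster 8), cell types that should lack the granule genes. Cluster 6 also had the highest level of the mature neutrophil list of all clusters (586 CPM, against 393 in cluster 4). Its other late granule list stood at 109 CPM and its primary granule list at 211, each below all of clusters 0 to 5. Which genes made up the 586 CPM was not tested. With each cell of at least 2000 UMIs thinned to 2000, the expected shares were 0.729%, 0.681% and 0.299% in clusters 0 to 3, cluster 4 and clusters 6 to 8. In cluster 8, 0 of 113 cells had a UMI of any member, which allows a share of up to 2.65% (3 counts). The level of clusters 0 to 3 lay above the interval of clusters 6 to 8, which rests on 4 UMIs, while the unthinned share of clusters 0 to 3 lay inside the interval of clusters 6 to 8 (0.279 to 2.59%).

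**Figure D2:**
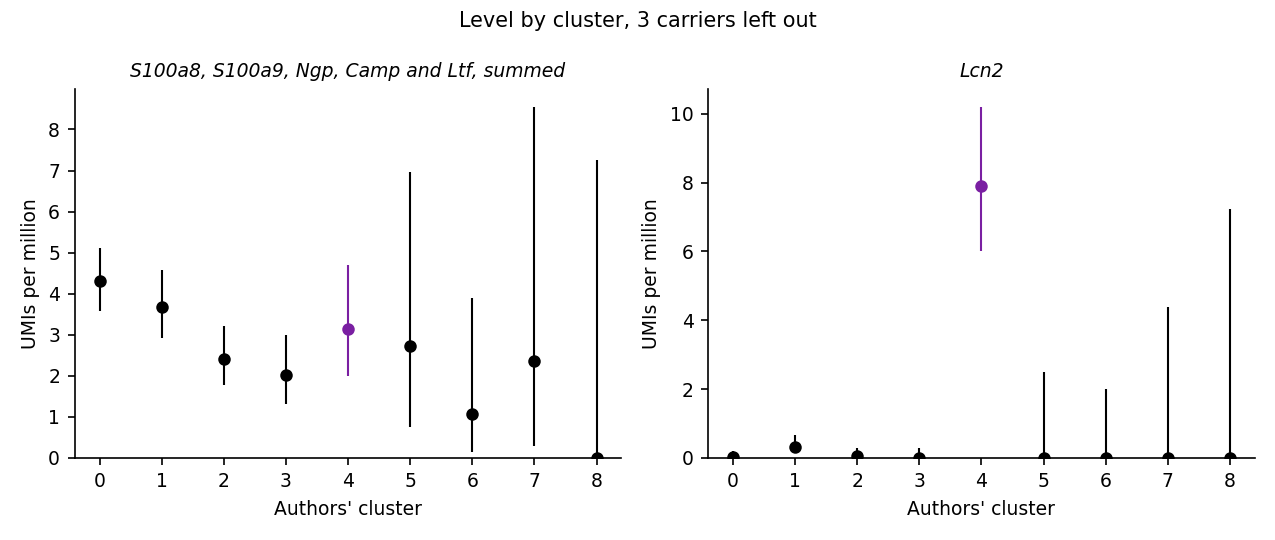
CPM (vertical axes) of the 5 members other than Lcn2 summed (left) and of Lcn2 (right) in each of the authors' clusters 0 to 8, pooled over 5 libraries without the 3 carriers; bars are exact 95% Poisson intervals. The 5 members stand at 3.36 in clusters 0 to 3 pooled and 3.13 in cluster 4, and Lcn2 stands at 7.90 in cluster 4 and below 0.4 elsewhere.

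By class, 65.6% of the member UMIs fell in MPP-3, with 14.1% of the cells, where the cell with 377 and the second carrier lie. Without carriers the 6 members stood at 5.52 CPM in HSC and 7.22 in MPP-3, above the 2.95 of MPP-2 and the 2.87 of MPP-4, at median depths of 3397.5, 5177, 6708 and 4067 UMIs. S100a8 without carriers was 1.58, 0.967, 0.73 and 0.581 in the 4 classes in that order, and S100a9 1.97, 0.709, 0.73 and 0.677. These values are pooled over the 5 libraries, whose class shares differ: 1401 of the 6838 cells of PBS replicate 1 and 23 of the 693 of AML replicate 1 were in HSC. The MPP-3 level rested on Lcn2, which made 57 of its 112 UMIs there.

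Lcn2 differed from the other members in where it lay. Of its 75 UMIs, 60 (80%) were in cluster 4, which holds 826 cells (4.91%), and 15 in the 15996 cells elsewhere. In cluster 4, 46 cells (5.57%, interval 4.11 to 7.36) had an Lcn2 UMI, against 10 cells (0.0625%, 0.03 to 0.115) outside it, and 6 of the 15 UMIs outside it were those of the cell with 377. Median depth was 8458 UMIs in cluster 4 and 4476.5 elsewhere. Thinned to 2000 UMIs, the expected shares without carriers were 1.30% and 0.0148%. Without carriers its 67 UMIs lay in 53 cells, 9 of which held 2 or more, where an even spread gives 66.6 and 0.398. Since the clusters were formed from these cells' own genes, this is a description with no test. No Lcn2 UMI was found in clusters 5 to 8, with 731 cells.

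Within cluster 4, Lcn2 was higher in the MPP-3 class in 3 of 5 libraries. MPP-3 cells of cluster 4 had 52 UMIs in 564 cells, or 10.5 CPM (7.83 to 13.7), and cells of other classes in cluster 4 had 8 UMIs in 262 cells, or 3.33 (1.44 to 6.56). Of the 52 UMIs, 40 were of AML replicate 3, at 12.9 CPM against 2.93 in the other classes. PBS replicates 1 and 3 had 6.58 against 3.18 and 9.11 against 3.83, on 2 to 7 UMIs, PBS replicate 2 had 0 against 6.02 on 1 UMI, and AML replicate 1 had 0 in both. MPP-3 cells outside cluster 4 had 12 UMIs in 1805 cells, or 1.14 (0.587 to 1.98). The cells of cluster 4 with an Lcn2 UMI were deeper than the rest of it (median 11412 against 8294.5 UMIs). Their primary granule genes stood at 11485.5 CPM against 5650, and Kit, the stem cell factor receptor of the gate, at 66.6 against 40.0. Of these 46 cells, 84.8% were in S or G2M by the authors' phase against 77.7%, and 4 (8.70%) carried another member against 16 of 780 (2.05%). The carriers of cluster 4, defined by holding several members, are 2 of those 4 cells, and in PBS replicates 1 and 2 the share was 0% against 1.05% and 4.55%. In PBS replicate 2 the 1 cell with Lcn2 had less of the primary granule genes than the rest of cluster 4 (4744 against 5548 CPM).

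Genes most like the members were sought over 38 sums of library and cluster, with Pearson's r on log2(CPM + 1) among 9603 genes of at least 5 CPM. For the mean of the 6 members the highest r was 0.516 (Lyplal1), followed by Pcsk4, Il11ra1, Prss34, Ankrd24, Gata2, Gcfc2, Pf4, Cd63 and Ccdc107 down to 0.445, which in counts this sparse is no finding. For Lcn2 alone, a target chosen after its values were seen, the closest were Prss34 with 0.924, Cst3 with 0.813, Hp (haptoglobin) with 0.782 and Mcpt8 with 0.763. They were followed by Erp29, Tspo, Hdc, Elane, F13a1 and Tmed3, from 0.740 down to 0.647. Of the 75 Lcn2 UMIs 60 lay in cluster 4, so these values rest mostly on the few sums of that cluster. Among members, r over the same sums was 0.696 for S100a8 with Ngp, 0.542 for S100a8 with S100a9 and 0.0219 for Camp with Lcn2. These sums share libraries and differ in depth.

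The first comparison asks whether healthy LSK cells of leukemic mice carried more or less of the members. In CPM of the plain total, S100a8 was 3.86, 0.769 and 1.72 in the PBS libraries and 0.514 and 0.761 in AML replicates 1 and 3. The AML libraries lay below all PBS libraries, although AML replicate 3, on 21 UMIs, and PBS replicate 2, on 8, were nearly equal. S100a9 was 6.26, 0.769 and 0.748 in PBS and 0 and 0.833 in AML. Here PBS replicate 1 stood alone and the other libraries overlapped. Ngp was 2.65, 0.192 and 0.704 in PBS and 0.514 and 0.616 in AML. Camp was 2.61, 0.288 and 0.66 in PBS and 0.514 and 1.09 in AML. For both genes PBS replicate 1 was again highest, and the AML values fell inside the PBS range. Lcn2 was 0.467, 0.0961 and 0.44 in PBS, 0 in AML replicate 1 and 1.78 in AML replicate 3, so that the AML libraries were the lowest and the highest of all. Ltf had 3, 1, 2, 2 and 3 UMIs in the 5 libraries, at or under the limit of 3 counts, so no fold is given.

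**Figure D3:**
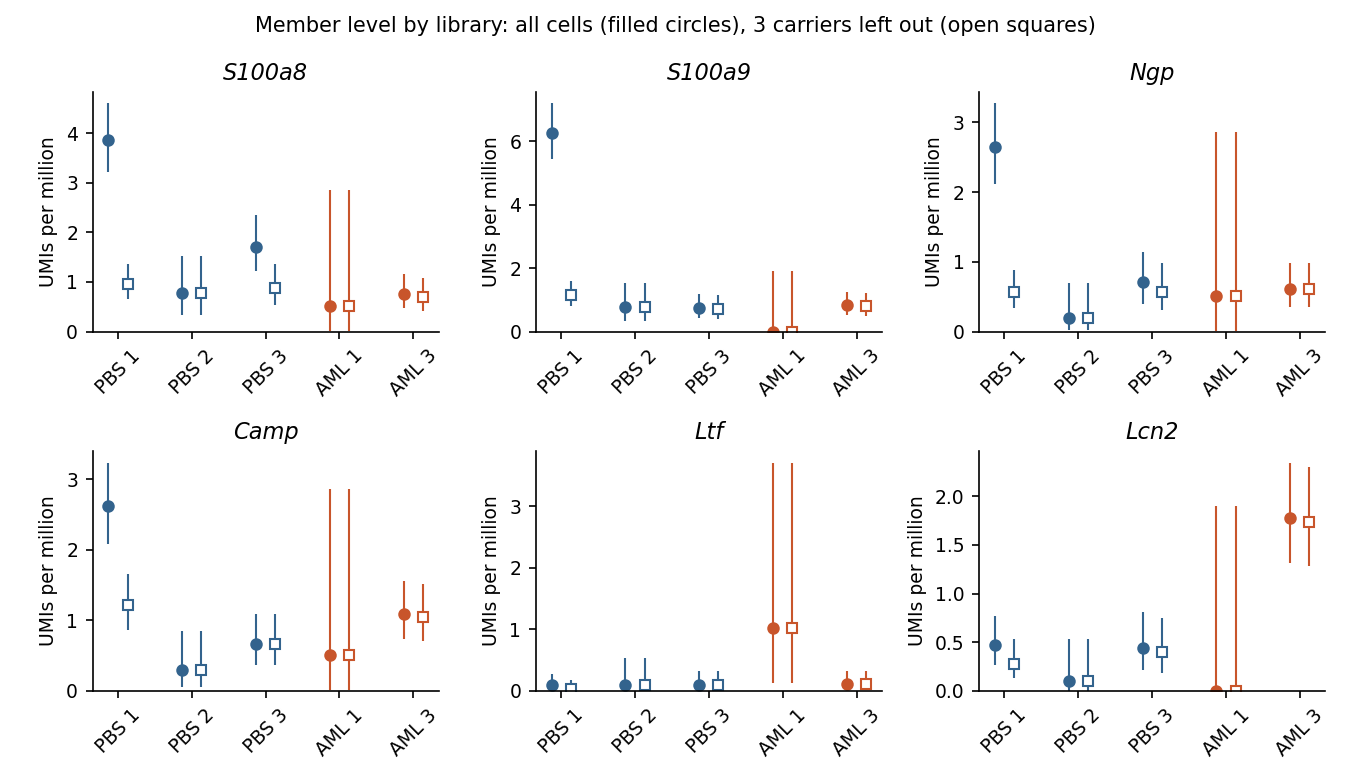
CPM (vertical axes, each from 0) of each member in the 3 PBS and 2 AML libraries, over all cells of the table (filled circles) and without the 3 carriers (open squares); bars are exact 95% Poisson intervals. The high values of PBS replicate 1 for S100a8, S100a9, Ngp and Camp come down to 0.965, 1.15, 0.56 and 1.21 without carriers, and Lcn2 in AML replicate 3 stays at 1.74.

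No member passed the test over all LSK cells. Counts summed per library were tested in edgeR by quasi-likelihood, with p-values adjusted after Benjamini and Hochberg over 14364 genes, of which 0.16% were called at an adjusted p under 0.05. Of the 5 members that passed the filter on low counts 0 were called, and Ltf did not pass the filter. At an unadjusted p under 0.05 there were 3 members (S100a8, S100a9 and Lcn2) and 1511 genes in all, and DESeq2 called 0 members. Fitted log2 fold changes of AML over PBS were -1.62 ± 0.63 (SE) for S100a8 (adjusted p = 0.406), -1.91 ± 0.89 for S100a9 (0.474), -1.09 ± 0.81 for Ngp (0.628) and -0.39 ± 0.72 for Camp (0.866). Lcn2 had 1.84 ± 0.67 (0.368). The groups did not overlap for S100a8, which 17.4% of all genes tested also showed in that direction. The median over the 5 members was -1.09, beside -0.03 over all genes tested.

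The negative values rested largely on 1 cell. Without the cell with 377 UMIs, the log2 fold change was -0.75 ± 0.59 for S100a8, -0.40 ± 0.60 for S100a9, 0.16 ± 0.67 for Ngp and 0.31 ± 0.60 for Camp. Without the 3 carriers it was -0.45 ± 0.55 (adjusted p = 0.782), -0.43 ± 0.61 (0.811), 0.29 ± 0.66 (0.895) and 0.26 ± 0.60 (0.897) with the same edgeR test, and Ngp and Camp had changed sign. Without PBS replicate 1 the values were -0.93 for S100a8, -0.17 for S100a9, 0.17 for Ngp and 0.85 for Camp. Without carriers S100a8 was 0.965, 0.769 and 0.88 CPM in PBS and 0.514 and 0.689 in AML, a difference of -0.27 (exact two-sided permutation p = 0.1, the smallest possible). Leaving out carriers was not planned, and the planned test over all cells gave -1.48 (exact two-sided permutation p = 0.2). Depth also differs between these libraries, and its part was not tested.

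**Figure D4:**
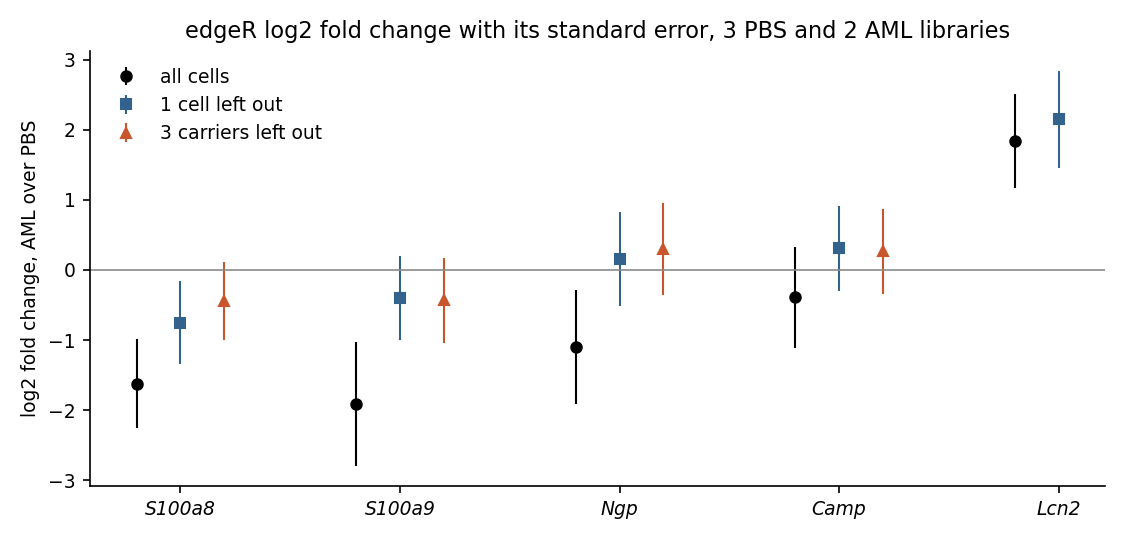
edgeR log2 fold change of AML over PBS (vertical axis) with its standard error for 5 members over all cells (circles), without the cell with 377 member UMIs (squares) and without the 3 carriers (triangles; Lcn2 fell under the filter there). S100a8 moves from -1.62 to -0.45 and S100a9 from -1.91 to -0.43, and Ngp and Camp cross 0.

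Lcn2 lay mostly in cluster 4, which held a larger share of the cells in AML. Cluster 4 held 2.88%, 2.46% and 3.41% of the cells in the PBS libraries and 11.1% and 9.57% in the AML libraries, and the groups did not overlap (exact two-sided permutation p = 0.1, the smallest possible). Inside cluster 4, Lcn2 was 5.04, 2.93 and 6.98 CPM in PBS, on 7, 1 and 9 UMIs, and 10.4 (7.56 to 14.1) in AML replicate 3 on 43. AML replicate 1 had 0 Lcn2 UMIs among 77 cells of cluster 4, which allows up to 13.2 CPM (3 counts). The means of 4.98 ± 2.02 (SD, n = 3) and 5.22 ± 7.38 (SD, n = 2) differed by 0.238 (exact two-sided permutation p = 0.9), a design in which p cannot fall below 0.1. Outside cluster 4 Lcn2 was 0.26, 0 and 0.0466 in PBS and 0 and 0.255 in AML. With cluster 4 left out, Lcn2 did not pass the filter. In sums over all cells of a library, more cells of a type and more RNA per cell cannot be told apart.

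**Figure D5:**
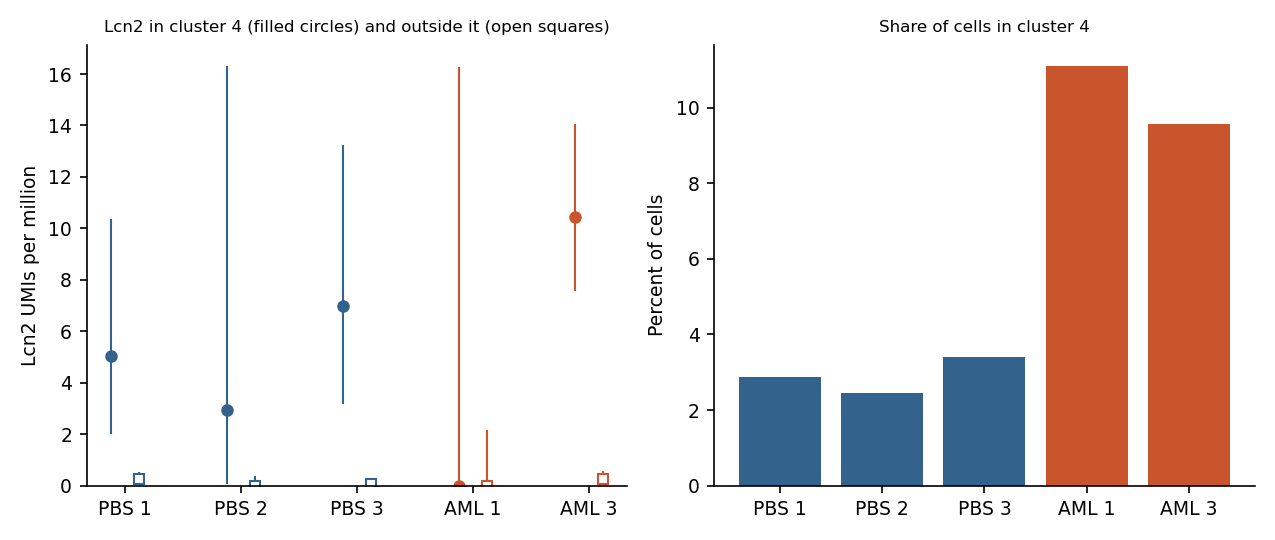
Left, Lcn2 CPM in cluster 4 (filled circles) and in all other cells (open squares) of each library, with exact 95% Poisson intervals. Right, percent of each library's cells in cluster 4 (bars from 0); the 2 AML libraries stand at 11.1 and 9.57, above the 3 PBS libraries at 2.46 to 3.41.

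Sums of other cells' markers lay apart between the groups for some lists, and their part in the members' values was not tested. The 6 primary granule genes summed to 803 to 1379 CPM in PBS and 1860 to 1877 in AML, and the 8 monocyte and macrophage markers to 43.5 to 79.3 and 237 to 239. Of the primary granule genes 1 of 6 tested was called higher, and of the monocyte markers 3 of 7, beside 0.153% of all genes. The 12 mature neutrophil markers summed to 45.2 to 84.2 and 128 to 157. Of 5 tested 0 were called, with a median log2 fold change of 0.34, beside -0.03 over all genes tested. In that list, from which genes are picked here, Slpi, a protease inhibitor, was 11.2 to 48.2 in PBS and 64.2 and 121 in AML, and Csf3r, the G-CSF receptor, had 104 to 1047 UMIs per library. Ly6g and Cd177 had 1 UMI each over the 5 libraries and Mmp25 0, while Mmp8 had 0 to 10 per library and Retnlg 0 to 60. The 8 erythroid genes went the other way over all LSK cells, with 122 to 502 CPM in PBS and 50.9 to 233 in AML and a median log2 fold change of -0.92, and 0 were called. The groups overlapped. In HSC, where AML replicate 1 has 23 cells, 4 of 5 tested were called lower (median -5.62), beside 5 of all 10668 genes. In MPP-2, 5 of 8 had positive values (median 0.35) and 0 were called. In cluster 4, where most Lcn2 lies, 5 of 6 mast cell and basophil genes tested were called lower in AML, beside 0.29% of all genes there, with a median of -1.98. Their summed level in cluster 4 was 255, 773 and 923 CPM in PBS and 22.1 and 198 in AML, so the groups did not overlap, and they include Prss34 and Mcpt8, which stood among the genes most like Lcn2. With 22.1 CPM over the list in AML replicate 1, most of its genes could pass the filter only with a PBS library, where they are high. A difference may thus be partly built into these calls.

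The second comparison looks within the classes. In MPP-3, S100a8 was called lower in AML, with a log2 fold change of -5.74 ± 0.81 (adjusted p = 0.00458, edgeR's quasi-likelihood test). It was the 1 member tested there, 0.0291% of 10294 genes were called lower, and the other 5 did not pass the filter. Behind it stood 96, 1 and 28 UMIs (PBS) against 0 and 2 (AML), or 23.6, 1.70, 10.4, 0 and 0.265 CPM, and the groups did not overlap, as for 12.6% of the genes tested in that direction. S100a8 passed the filter through PBS replicates 1 and 3 alone, the libraries where it is high, so a difference was built into its passing. Of the 96 UMIs of PBS replicate 1, 93 were in the cell with 377, and of the 28 of PBS replicate 3, 19 were in the second carrier. Without carriers 3, 1 and 9 UMIs remained in PBS, at 0.739, 1.70 and 3.36 CPM, against 0 and 0.265 in AML.

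The class was not made up alike in the 5 libraries. Cluster 4 held 111 of 796, 10 of 41 and 90 of 422 MPP-3 cells in PBS, and 59 of 228 and 294 of 882 in AML. In PBS replicate 2, 25 of the 41 lay outside clusters 6 to 8. Without clusters 6 to 8 the difference for S100a8 was -5.79 ± 0.75 (adjusted p = 0.000949, edgeR), and the part of the share in cluster 4 was not tested. In the same sums of MPP-3, 5 of 5 erythroid genes (median -2.35, 1 called lower), 7 of 7 B and plasma cell genes (-1.87) and 6 of 6 mast cell and basophil genes (-1.65) had negative fold changes, and their part was not tested.

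Leaving out cells ended this call. Without the cell with 377, or without all 3 carriers, S100a8 no longer passed the filter. With no filter on low counts, 4 members were called lower in MPP-3, beside 0.475% of 18112 genes: S100a8 (-5.71), S100a9 (-4.81), Ngp (-3.95) and Camp (-2.83). Without the cell with 377 and with no filter, S100a8 was the 1 member called, at -4.21 ± 1.04 (adjusted p = 0.0101), and S100a9 stood at -0.90 ± 1.20. Without the 3 carriers and with no filter 0 were called, and S100a8 stood at -2.93 ± 1.27 (adjusted p = 0.55). Leaving out PBS replicate 1 or PBS replicate 3 took S100a8 under the filter, and without AML replicate 3 it stood at -7.91 ± 2.49 with an adjusted p of 0.145 by edgeR.

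No member passed the filter in HSC, MPP-2 or MPP-4. Of the genes that passed it 0.178%, 0.0399% and 0.0325% were called. With no filter, 0 members were called in these classes, beside 0.161%, 0.81% and 0.388% of all genes in those fits. S100a8 stood at 0.66 ± 0.88 in HSC, -0.24 ± 0.86 in MPP-2 and 0.72 ± 0.96 in MPP-4. Within the authors' clusters, S100a9 (-2.12 ± 1.11, adjusted p = 0.616) and Camp (-0.50 ± 0.83, 0.885) were tested in cluster 0, where 0.0407% of 12286 genes were called. S100a9 stood there at 14.8 TMM-scaled CPM in PBS replicate 1, 0.944 and 0.436 in the other PBS libraries, and 0 and 1.63 in AML. The cell with 377 holds 164 of the 180 S100a9 UMIs of PBS replicate 1 in cluster 0, and no fit without it was run for this cluster. No member passed the filter in clusters 1 to 4.

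An interaction term asked if AML acted unequally on the 4 classes, and 0.872% of 12734 genes were called. S100a8 was called (adjusted p = 0.000901, edgeR's quasi-likelihood test), where the log2 fold change in MPP-3 less that in HSC was -6.54. The like differences from HSC were -1.02 for MPP-2 and -0.01 for MPP-4. The term uses the MPP-3 sums described above, where S100a8 was high in PBS replicates 1 and 3 alone. A filter on low counts was applied here too, so the call is no separate support for that in MPP-3. S100a9 (adjusted p = 0.0648), Camp (0.245) and Lcn2 (0.901) were not called, and Ngp and Ltf did not pass the filter. Without the cell with 377 the difference for S100a8 was -4.74 (0.247), and without carriers -3.53 (0.512), so it stayed negative and was no longer called. It was also not called without AML replicate 3 (-3.74, 0.773) and without PBS replicate 1, where S100a8 did not pass the filter. Without PBS replicate 2 or PBS replicate 3, S100a9 was called as well (0.00161 and 0.017).

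Of 18 other late granule and maturation genes 7 passed the filter over all LSK cells, and 2 rose in AML while 0 fell, beside 0.153% of all genes that rose. They were Hp, which binds free hemoglobin (2.68 ± 0.38, adjusted p = 0.0119), and Cybb, the membrane subunit of the phagocyte NADPH oxidase (2.52 ± 0.40, 0.0183), both by edgeR. Without PBS replicate 1 Hp stood at 2.60 and Cybb at 2.23, and neither was called (0.133 for each). Hp was also not called without PBS replicate 2 (2.55, 0.0565) or AML replicate 3 (1.37, 0.147), nor Cybb without PBS replicate 2 (2.48, 0.109) or AML replicate 3 (2.60, 0.053). The median over the 7 was -0.38, beside -0.03 over all genes. Some genes of the list, picked here for their low counts, were hardly seen: Olfm4 had 0 UMIs, Fcnb 1, Chil3 2 and Itgb2l 2 over the 5 libraries, and both Chil3 UMIs lay in the cell with 377.

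Of the 6 primary granule genes, all of which passed the filter, Ctsg rose (1.54 ± 0.26, adjusted p = 0.025, edgeR) and 0 fell, with a median of 1.23. Ctsg was not called without PBS replicate 1 (1.45, 0.203) or PBS replicate 2 (1.47, 0.143). Of 13 other S100 genes 7 passed, and 0 were called. All 7 had negative fold changes, with a median of -0.40, where 53% of all genes had one. S100a10 and S100a11, the annexin partners, had 461 to 10205 and 362 to 7174 UMIs per library. Of 9 receptor genes for the members' proteins 6 passed and 0 were called. Among them Tlr4, the receptor of calprotectin, had 2 to 88 UMIs per library and Ly96, its co-receptor MD-2, had 20 to 426.

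Of 8 granulocyte regulators, all tested, Irf8 rose (2.17 ± 0.33, adjusted p = 0.0183, edgeR) and 0 fell. Irf8 was not called without PBS replicate 1 (2.25, 0.133) or AML replicate 1 (1.96, 0.0557). Irf8 drives monocyte and dendritic cell fate. Cebpe, the regulator of the secondary granule genes, gave UMI counts of 33, 3 and 26 (PBS) and 1 and 28 (AML), or 1.03, 0.288 and 1.14 CPM against 0.514 and 1.01, so the groups overlapped. Cebpb, in contrast, had 82.2 to 155 CPM over the 5 libraries, and Spi1, which encodes PU.1, 94.6 to 175. In the cell with 377, Cebpe was at 0 and Cebpb had 4 UMIs.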

How the data were processed

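Single-cell RNA was counted with 10x Chromium 3′ chemistry. The deposited matrices hold raw counts, as whole UMIs per gene and barcode, with no normalization. The submitters' processing notes name Cell Ranger 7.0.1, R 4.2.2 and Seurat 4.3.0, with builds GRCm38 and mm10. The authors' deposited cell table gives each cell its cluster, phase, class and module scores for published signatures, and a percent of mitochondrial counts; 11 of its columns were not used. Its 16822 cells are those the authors kept, how doublets were treated was not stated in the sources read, and no doublet caller was run. AML replicate 2 has no cell in it, so its barcodes entered only the values outside the table and the alternatives with a filter on all 6 libraries (at least 1000 genes and at most 10% mitochondrial).

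CPM were computed on each library's plain total. For tests, counts were summed per library, over all cells, a class or a cluster of at least 20 cells, and fitted with edgeR 4.0.16 in R 4.3.3 (TMM, filterByExpr by group, quasi-likelihood F test, Benjamini-Hochberg at 0.05), with DESeq2 1.42.0 as an alternative and the script checked on simulated data. Single values were compared by exact permutation over libraries. For summed counts, thinning drew 2000 UMIs from each cell. Thinned shares of cells in clusters are the expected values of such a draw. Cells under 2000 UMIs were left out of both. Gene positions come from GENCODE on GRCm38 and promoter sequences from RefSeq; all 6 members matched both. The named genes are the members, the called genes of the fixed lists, and the 10 genes most like the members; others are said to be picked. The members and lists were chosen with earlier results of these data known. Other settings tried were library size scaling, no filter on low counts, the replicate block, leaving out each library, cluster 4 or clusters 6 to 8, other carrier limits and leaving out carriers.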

Additional observations from a re-analysis of the deposited data

Results flagged for a closer look

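Member UMIs outside the authors' cell table were above the highest PBS library in some AML libraries, on few UMIs. Ngp was 0.423 CPM in AML replicate 2 (3 UMIs) and 0.707 in AML replicate 3 (5 UMIs), where the highest PBS library had 0.408. Camp was 1.19 in AML replicate 1 (10 UMIs) and 1.70 in AML replicate 3 (12 UMIs), against at most 0.816 in PBS. Ltf was 0.238 in AML replicate 1 (2 UMIs) and 0.141 in AML replicate 2 (1 UMI), against 0 UMIs in PBS, where the limit of 3 counts is 0.33, 1.21 and 0.408 CPM, so both lie under it. Lcn2 was 0.846 in AML replicate 2 (6 UMIs), against at most 0.402 in PBS. Of the 17 member UMIs of AML replicate 2, 13 lay in barcodes that also occur in another library. For S100a8 the interaction term between class and AML was called (adjusted p = 0.000901, edgeR). It rests on the MPP-3 sums, where 93 UMIs of PBS replicate 1 and 19 of PBS replicate 3 each lay in 1 cell. A filter on low counts was applied, so the call is no separate support for that in MPP-3. The difference of MPP-3 less HSC was -6.54. Without the cell with 377 member UMIs it was -4.74 and not called (0.247).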

How the results depend on the processing

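Genes called over all LSK cells (23) came to 79 with DESeq2, 392 with no filter, 9 with thinned cells, 75 with the filter on 6 libraries, 46 with shared barcodes also left out, 12 without cluster 4, and 2 to 419 leaving out 1 library (2 without PBS replicate 1, 8 without PBS replicate 2, 419 without AML replicate 3). Members called went from 0 to 1 with no filter (S100a9, -1.92, adjusted p = 0.0131 by edgeR) and stayed at 0 leaving out 1 library. In HSC (19) there were 0 with DESeq2, 29 with library size scaling, 29 with no filter and 0 to 17 leaving out 1 library. In MPP-2 (5) there were 15, 26 and 156, 154 with no filter and no carriers, and 0 to 84. In MPP-3 (5) there were 8, 84 and 166, 14 without clusters 6 to 8, 158 and 156 with no filter and without the cell with 377 or all carriers, and 2 to 69. In MPP-4 (4) there were 1, 9 and 75, and 0 to 34. With DESeq2, cluster 0 went from 5 to 12, cluster 2 from 23 to 1, cluster 3 from 16 to 7 and cluster 4 from 45 to 7. Members called in MPP-3 (1) were 4 with no filter, 0 without the cell with 377, 0 without carriers, 0 with both no filter and no carriers, and 0 to 1 leaving out 1 library. The interaction's genes (111) ranged from 29 to 189 leaving out 1 library, and its members (1) from 0 to 2, with 0 without the cell with 377 and 0 without carriers. The causes were not tested.

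The log2 fold change of Camp (-0.39) became 0.31 without the cell with 377, 0.26 without carriers and -1.29 to 0.85 leaving out 1 library, and that of Ngp (-1.09) became 0.16, 0.29 and -1.46 to 0.17. Leaving out 1 library, that of S100a9 ran from -8.52 (without AML replicate 3) to -0.17 (without PBS replicate 1). Lcn2 stood at 1.59 without PBS replicate 2 and 2.21 without AML replicate 1. It fell under the filter without PBS replicate 1, PBS replicate 3 or AML replicate 3. In CPM the difference became 0.123 for Ngp and 0.0616 for Camp without carriers. The difference in the share of carriers (0.000176 percentage points) became -0.0047 at 3 UMIs or more, -0.0125 at 10 or more, -0.00311 with the filter on 6 libraries and -0.00429 with shared barcodes left out, and -0.0125 to 0.0128 leaving out 1 library. The difference in the share of cells with a member UMI (0.0783) became 0.651 with the filter on 6 libraries, -0.0239 with shared barcodes left out and -1.001 to 1.16 leaving out 1 library. Of the called list genes, thinning ended the calls of Irf8 (2.08, adjusted p = 0.0583, edgeR) and Cybb (3.14, 0.0878), leaving out cluster 4 those of Hp (2.68, 0.0844) and Cybb (1.88, 0.229), and leaving out shared barcodes those of Hp (1.53, 0.327) and Ctsg (1.41, 0.231), where Cybb did not pass the filter. With shared barcodes left out, PBS replicate 2 keeps 4 cells and AML replicate 2 keeps 31, so their shares of 0 say little and the values of that setting rest on the other libraries.

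The replicate numbers are only numbers: deviations of same-numbered libraries correlated at -0.0096, 0.00733 and -0.0576. With the replicate block, genes called were 91 over all LSK cells, 34 in MPP-4, 47 in MPP-3, 30 in MPP-2 and 9 in HSC, and S100a8 in MPP-3 was -5.52. Depth limits all members: Ltf had 11 UMIs in all, and AML replicate 1 held 5 member UMIs.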
